A study of Sus scrofa with 6 samples.

Results

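An isolated CpG is taken here as a CpG whose nearest listed CpG lies 300 bp or more away on both sides. In the 2.1 Mb of chromosome 9 covered by the deposited tables (positions 73250031 to 75349903, build Sscrofa11.1), 576 of the 14116 listed CpGs met this rule. Of these, 550 also had at least 10 reads in every embryo once both strands were summed, and these 550 are described here. They make up 4.45% of the 12359 CpGs that reached this depth, and the remaining 11809 are called the other CpGs. The first and the last listed CpG were not counted as isolated, because their outer neighbours are not listed.

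Whole pig embryos had been sequenced after bisulfite conversion, which turns unmethylated C into T, across the whole genome at embryonic day 21, all of a Landrace x Yorkshire x Duroc cross. The control group held 3 untreated embryos. The other group held 3 parthenotes, embryos that arise from an electrically activated oocyte without a sperm and so carry maternal chromosomes only, and that developed in surrogate gilts of the same cross. The series asks where paternal or maternal hypermethylation lies in these embryos. The labels do not say whether embryos of a group share a litter, so p-values measure only the spread between these embryos.

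As background, a CpG is the base pair step at which vertebrate DNA is methylated on both strands. After each round of DNA replication the new strand lacks the mark, and the maintenance methyltransferase DNMT1, guided by UHRF1, restores it from the old strand. Dense CpGs at promoters are mostly kept free of methylation, while scattered CpGs in introns and between genes are mostly methylated. CpGs without close neighbours are known as sites where methylation is easily lost in tissues that have divided many times, and this loss is strongest in late-replicating domains. No genome sequence was used here, so the bases beside these CpGs are not described.

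The nearest neighbour of the 550 isolated CpGs lay at a median of 394 bp (300 to 1156 bp), against 30 bp for the other CpGs. The stretch free of any other CpG around them had a median length of 1043 bp and reached 3199 bp. Introns held 325 of them, intergenic stretches 202, 3′ UTRs 14 and exons 6. The remaining 3 lay in the 5′ UTR of CALCR, at a splice site of PON3 and downstream of LOC100738575. By the deposited annotation, isolated CpGs were 5.03% of the intronic, 4.2% of the intergenic and 5.58% of the 3′ UTR CpGs at this depth, but 1.18% of the exonic and 0.58% of the 5′ UTR CpGs. The upstream class held 0 of 101. Median depth was 31 to 35.5 reads in the 6 embryos at isolated CpGs and 28 to 31 reads at the other CpGs. At the edge of the rule, the 35 CpGs with a nearest neighbour at 300 to 309 bp averaged 79.2% ± 8.84 in controls and 83.6% ± 2.88 in parthenotes (SD, n = 3 each). The 55 CpGs at 290 to 299 bp averaged 77.2% ± 6.10 and 82.1% ± 2.76 (SD, n = 3 each).

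Isolated CpGs were highly methylated in both groups. Their mean level was 73.0%, 86.9% and 83.5% in controls 1 to 3 and 83.9%, 84.0% and 86.2% in parthenotes 1 to 3. Control 1 was thus lower than every other embryo, and the groups overlapped. The group means were 81.1% ± 7.27 in controls and 84.7% ± 1.30 in parthenotes (SD, n = 3 each). The difference of 3.61 percentage points had an exact 2-sided permutation p of 0.7, in a design of 3 against 3 embryos that cannot give a p under 0.1. Without control 1 the difference over the same CpGs was -0.47 points. The 26 isolated CpGs under 10 reads in some embryo stood at 75.8% ± 7.91 in controls and 82.8% ± 3.26 in parthenotes (SD, n = 3 each) when their reads were summed.

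Intronic and intergenic isolated CpGs had similar levels. Intronic isolated CpGs were at 73.4%, 87.4% and 84.6% in controls 1 to 3 and at 84.6%, 84.2% and 86.8% in parthenotes 1 to 3. Their group means were 81.8% ± 7.43 and 85.2% ± 1.41 (SD, n = 3 each). The exact permutation p was 0.9, also after Benjamini-Hochberg adjustment over the 2 classes with at least 20 CpGs. Intergenic isolated CpGs were at 72.2%, 86.1% and 81.9% in controls and at 82.6%, 83.3% and 84.9% in parthenotes. Their means were 80% ± 7.12 and 83.6% ± 1.16 (SD, n = 3 each), with an exact permutation p of 0.6 (adjusted 0.9). In both classes control 1 was lowest and control 2 was as high as or higher than any parthenote. Without control 1 the differences turned to -0.78 points in introns and -0.36 points between genes.

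**Figure D1:**
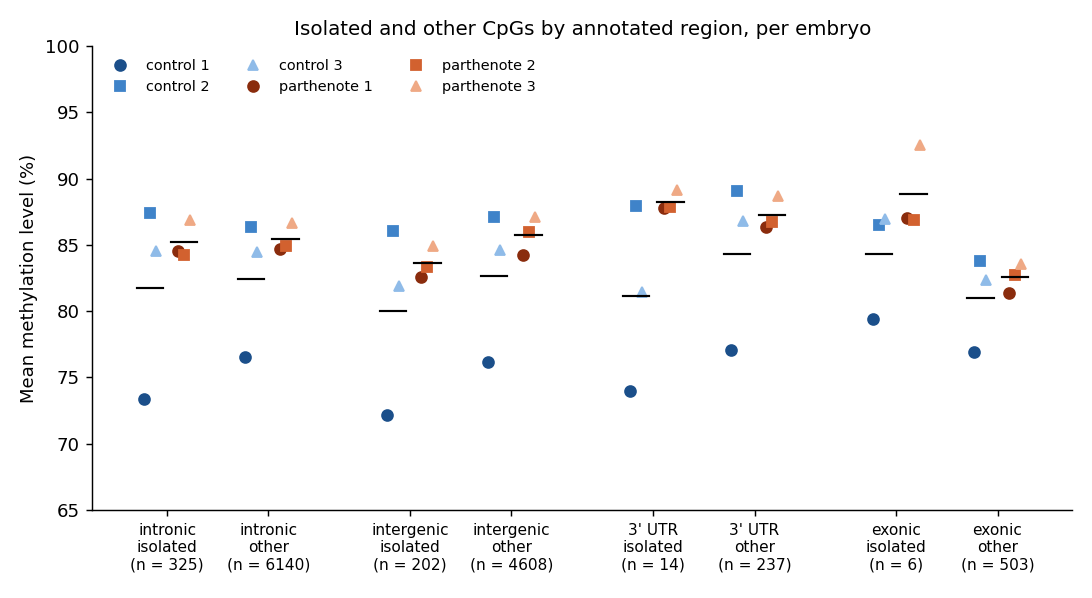
Mean methylation level (%, axis from 65) of isolated and other CpGs in 4 annotated regions; each symbol is 1 embryo and each black line a group mean, with the number of CpGs under each set. Control 1 is the lowest embryo in all 8 sets, and in introns and between genes the other 5 lie close together.

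The smaller classes are given as values only. The 14 isolated CpGs in 3′ UTRs were at 81.1% ± 6.95 in controls and 88.3% ± 0.76 in parthenotes (SD, n = 3 each). They lie in ASB4 (5), PON3 (3), BET1 (2), PPP1R9A (2), CASD1 (1) and PDK4 (1). The difference of 7.14 points fell to 2.90 points without the PDK4 site described below, and to -1.55 points when control 1 was left out as well. The 6 exonic sites, 1 each in ASB4, CASD1, COL1A2, GNGT1, PON1 and PON2, were at 84.3% ± 4.23 and 88.8% ± 3.24 (SD, n = 3 each). They ranged from 80% to 95.6% as means over the 6 embryos. The 5′ UTR site of CALCR, the calcitonin receptor, was at 67.8% ± 16.3 in controls and 80.4% ± 2.92 in parthenotes (SD, n = 3 each). The other CpGs of the 5′ UTR class were at 24.9% and 28.0%, so the isolated 5′ UTR site did not share the low level of that class. The splice site CpG of PON3, a paraoxonase, was at 74.7% ± 10.1 and 81.6% ± 8.07, and the CpG downstream of LOC100738575 at 91.2% ± 8.60 and 92.0% ± 2.94 (SD, n = 3 each). The groups overlapped at each of these 3 single sites.

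Only 5 isolated CpGs lay in promoters as the deposited tables annotate them, against 382 of the other CpGs. These 5 were all highly methylated. The site annotated to BET1, a vesicle transport protein, was at 98.2% ± 1.68 in controls and 95.6% ± 3.81 in parthenotes (SD, n = 3 each). The site of LOC100738575 was at 92.7% ± 4.33 and 92.8% ± 6.54, and that of PPP1R9A, the gene of the actin-binding protein neurabin, at 90.7% ± 6.41 and 92.9% ± 3.14. The site of CALCR was at 92.0% ± 3.37 and 89.7% ± 8.93, and that of the microRNA gene MIR489 at 85.8% ± 5.44 and 86.8% ± 7.39. edgeR called none of the 5, with an adjusted p of 1 for each. The call rule is given below.

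Isolated CpGs lay less often than the other CpGs at either end of the scale. The middle of the levels was about as wide in both sets. The lower and upper quartiles were 78.5% and 91.1% for isolated CpGs and 80.8% and 93.5% for the others. Averaged over the 6 embryos, 58.4% of isolated CpGs lay from 70% to under 90%, against 40.8% of the other CpGs. Sites at the top of the scale were fewer: 31.6% of isolated CpGs were at 90% or more, against 46.0% of the others. Sites near the bottom were fewer too, with 4 of 550 (0.73%) under 20% against 400 of 11809 (3.39%), and none under 10%. The SD over CpGs was 12.5 points for isolated and 19.3 points for other CpGs. Much of the low end of the other CpGs lies in promoters and 5′ UTRs, and the share at the high end was also lower within both main classes. In introns 36.0% of isolated and 47.4% of other CpGs were at 90% or more, and between genes 24.8% and 45.4%. On the plus strand alone the mean within-embryo gap in introns was -1.84 points (exact sign-flip permutation p = 0.156), against -7.70 points with both strands.

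The share of CpGs at 90% or more was lower for isolated CpGs in each of the 6 embryos. It was 12.7%, 57.6% and 40.9% in controls 1 to 3, against 24.9%, 61.5% and 53.1% for the other CpGs. In parthenotes 1 to 3 it was 40%, 38.9% and 50%, against 48.6%, 53.2% and 58.7%. The mean gap was -9.98 points, with an exact 2-sided sign-flip permutation p of 0.031, the smallest that 6 embryos allow. This test asks whether the sign is the same in all embryos and does not sample CpGs. The threshold of 90% was chosen after seeing the data. A share at a fixed limit also moves with depth, which was higher at isolated CpGs, and the part of depth was not tested.

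**Figure D2:**
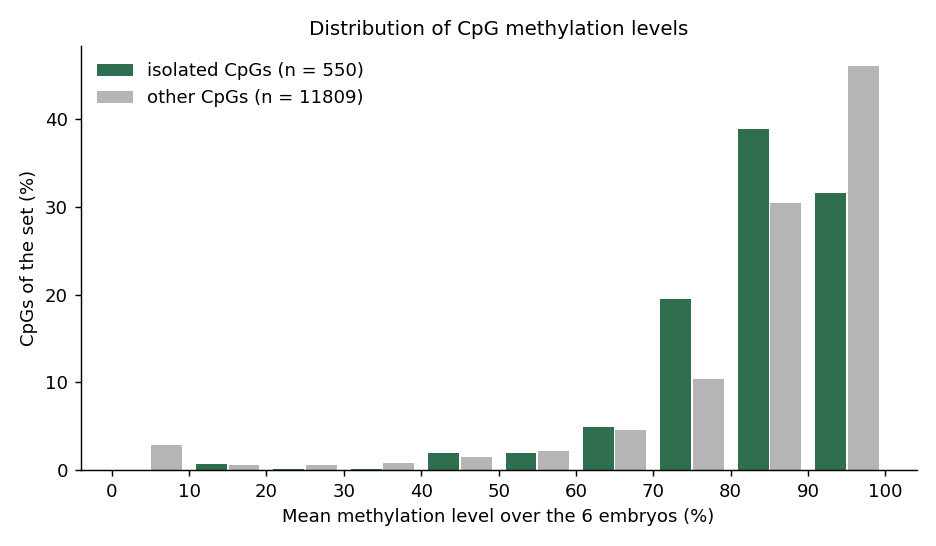
Share of CpGs (%) by mean methylation level over the 6 embryos in steps of 10 points, for isolated (green) and other CpGs (grey). Isolated CpGs are more often at 70 to 90% and less often at 90% or more, where 31.6% of them lie against 46.0% of the others.

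The mean level of isolated CpGs did not differ from that of the other CpGs across all classes. The within-embryo difference, isolated minus other, was -2.30, 1.59 and 0.29 points in controls 1 to 3 and 0.78, -0.04 and 0.72 points in parthenotes 1 to 3. Its mean was 0.17 ± 1.33 points (SD, n = 6; exact sign-flip permutation p = 0.71875). With promoters, 5′ UTRs and upstream CpGs taken out of the other CpGs, the mean was -1.28 points (exact sign-flip permutation p = 0.0625). Within introns it was -0.43 ± 1.47 points (SD, n = 6; exact p = 0.6875). Between genes isolated CpGs were lower in 6 of 6 embryos, by -3.99, -1.06 and -2.73 points in controls and -1.66, -2.60 and -2.22 points in parthenotes. That mean of -2.38 ± 1.00 points (SD, n = 6) had an exact sign-flip permutation p of 0.031, which over the 2 classes becomes 0.0625 and misses the threshold. The difference between isolated and other CpGs was itself -0.14 ± 1.98 points in controls and 0.49 ± 0.45 points in parthenotes (SD, n = 3 each; exact permutation p = 0.8).

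The level did not change steadily with the distance to the nearest CpG. CpGs with a neighbour at 2 to 9 bp were the most methylated, at 89.1% in introns and 88.5% between genes as means over the 6 embryos. Isolated CpGs were lower than these in 6 of 6 embryos, by -5.56 ± 2.78 points in introns and by -6.70 ± 2.47 points between genes (SD, n = 6). Both had an adjusted exact sign-flip permutation p of 0.0417 over the 8 comparisons of this family, which was chosen after seeing the data. With 5 reads in every embryo the intronic difference was -3.23 points. The lowest levels were found at neighbours of 50 to 99 bp, with 81.0% in introns and 80.1% between genes. Isolated CpGs were above these in 6 of 6 embryos, by 2.48 ± 0.74 and 1.77 ± 0.61 points (SD, n = 6; adjusted exact p = 0.0417 each). Against neighbours at 10 to 49 bp, intergenic isolated CpGs were lower by -2.43 ± 0.87 points in 6 of 6 embryos (SD, n = 6; adjusted exact p = 0.0417), and intronic ones differed by 0.73 ± 1.67 points (SD, n = 6; adjusted exact p = 0.357). Against neighbours at 100 to 299 bp, intronic isolated CpGs were higher by 1.40 ± 0.48 points in 6 of 6 embryos (SD, n = 6; adjusted exact p = 0.0417). Between genes the same difference was -0.22 ± 0.59 points (SD, n = 6; adjusted exact p = 0.40625). Among isolated CpGs, those 600 bp or more from any other were at 81.4% in introns (36 CpGs) and 84.7% between genes (29 CpGs), against 84.2% and 81.7% at 300 to 399 bp. Median depth per CpG also differed with distance, from 26 reads in introns at 2 to 9 bp to 33 reads at 300 to 399 bp. At 400 to 599 bp the levels were 83.2% in introns (118 CpGs) and 80.7% between genes (68 CpGs), and the order of the isolated distance classes was not tested. With 20 reads in every embryo, each of these 6 distance calls missed the threshold (adjusted exact p 0.0625 to 0.393), and on the minus strand too (adjusted exact p 0.0833 to 0.143). The adjusted p of a comparison also rises when others of its family leave the smallest p. With 20 reads the differences at 2 to 9 bp were -5.59 points in introns and -7.21 points between genes. The intronic differences with 20 reads were 1.41 points at 50 to 99 bp and 0.31 points at 100 to 299 bp. On the minus strand the intronic difference at 100 to 299 bp was 0.73 points.

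**Figure D3:**
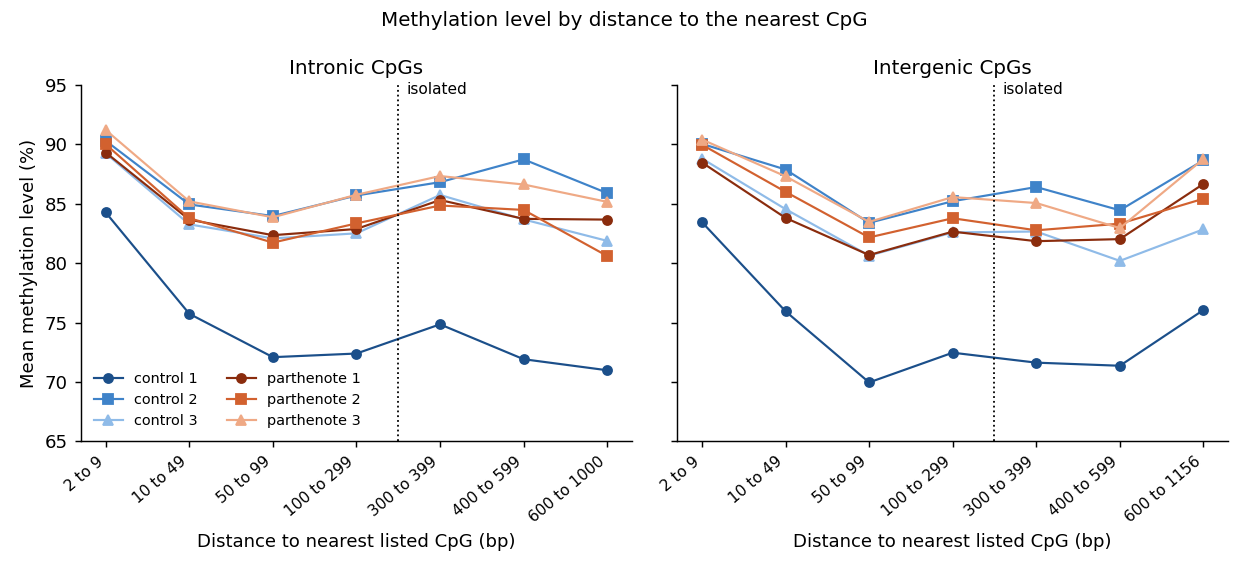
Mean methylation level (%, axis from 65) against the distance to the nearest listed CpG (bp) for intronic (left) and intergenic CpGs (right), with 1 line per embryo; classes right of the dotted line are isolated. Every embryo is highest at 2 to 9 bp and lower at 10 to 99 bp, and control 1 lies below the other 5 throughout.

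The spread among embryos was larger in controls than in parthenotes. At isolated CpGs the SD over the 3 controls had a median of 8.31 points. The SD computed from counting at the same depth had a median of 6.47 points. In parthenotes the median SD was 4.70 points and the median counting SD 5.69 points. An SD over 3 embryos falls below the true SD more often than above it. These medians are therefore not like measures, and only the root mean squares are set against counting. The root mean square over CpGs, which gives weight to the few variable sites, was 7.94 points in parthenotes (6.12 from counting) and 11.7 points in controls (6.72 from counting). The variance was thus 1.68 times that of counting in parthenotes, or 1.32 times without variant signs. In controls it was 3.05 times, or 2.57 times without variant signs. At the other CpGs the median SD was 6.92 points in controls and 4.56 points in parthenotes, with median counting SDs of 5.95 and 5.26 points. Their root mean square was 10.7 points in controls (6.44 from counting) and 8.34 points in parthenotes (5.84 from counting). The variance of the other CpGs was thus 2.78 times that of counting in controls and 2.04 times in parthenotes. By class, the control medians at isolated CpGs were 8.20 points in introns, 8.42 between genes, 8.27 in 3′ UTRs and 8.05 in exons. The parthenote medians were 4.56, 4.99, 3.39 and 4.65 points. With each embryo centred on its own mean over isolated CpGs, the control median fell to 6.04 points and the parthenote median stayed at 4.69 points. The centred root mean square was 9.21 points in controls and 7.83 points in parthenotes. At the other CpGs it was 9.35 and 8.26 points, so by this measure isolated CpGs did not vary more.

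Pairs of embryos set control 1 apart. The median absolute difference at an isolated CpG was 13.2 points between controls 1 and 2 and 10.7 points between controls 1 and 3, but 5.91 points between controls 2 and 3. It was 5.05 to 5.68 points among parthenotes. Between the groups it was 4.6 to 6.51 points without control 1 and 9.54 to 12.0 points with it. Controls 2 and 3 therefore lay about as close to the parthenotes as to each other.

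On average control 1 was further below the other embryos at isolated CpGs than at the other CpGs. At CpGs with a neighbour at 50 to 299 bp, control 1 was about as far below them as at isolated CpGs. It was the lowest embryo at 338 of 550 isolated CpGs (61.5%) and at 5854 of 11809 other CpGs (49.6%). At isolated CpGs it was -11.9 points from the mean of the other 5 embryos, and at the other CpGs -8.98 points. Over intronic and intergenic CpGs this deficit was -5.89 points with a neighbour at 2 to 9 bp, -9.10 at 10 to 49 bp and -11.3 at 50 to 99 bp. It was -11.6 at 100 to 299 bp and then stayed at -11.5 to -12.7 points in the isolated classes. This is 1 embryo, so there is no replicate check of it. Control 1 also carried a possible C-to-T variant (rule below) at 20 of the 550 isolated CpGs, and the other embryos at 2 to 9. Without any CpG that carried such a sign, the deficits were -11.1 points at isolated and -8.30 points at other CpGs. At neighbours of 100 to 299 bp the deficit was then -10.6 points.

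Both strands gave closely similar levels. Over the 491 isolated CpGs with 5 or more reads on each strand in every embryo, the plus strand was at 72.9% and the minus strand at 73.4% in control 1. In parthenote 3 the strands were at 86.5% and 86.1%. The mean difference over the 6 embryos was 0.002 points (exact sign-flip permutation p = 1).

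Reads from the opposite strand show whether the DNA itself carries a C-to-T variant at the CpG, which bisulfite reads would count as unmethylated. A CpG carried a variant sign here where, in at least 1 embryo, 20% or more of at least 10 opposite-strand reads had A in place of G, or where a strand had no call. Of the isolated CpGs 24 (4.36%) carried this sign, against 423 other CpGs (3.58%). Among the 24, 22 carried it in a control and 5 in a parthenote. Without the 24, the mean level of isolated CpGs was 82.2% ± 6.94 in controls and 85.1% ± 1.36 in parthenotes (SD, n = 3 each).

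Of the 550 isolated CpGs, edgeR called 1 as different between the groups at an adjusted p under 0.05. In all, 0.429% of the 12359 tested CpGs were called, every one higher in parthenotes. Among isolated CpGs the count higher was 1 and the count lower 0 (background 0%), and limma found 2 higher (0.494% of all tested called) and DESeq2 1 higher (0.356% of all tested called), both with 0 lower. The edgeR count was 2 without control 1, 3 without control 2 and 0 without control 3 or parthenote 3. At an unadjusted p under 0.05, 23 isolated CpGs (4.18%) were higher in parthenotes (2.99% of all tested) and 1 (0.18%) was lower (0.299% of all tested). Of the 23, 12 carried a variant sign. All 3 parthenotes were above all 3 controls at 33 isolated CpGs (6%, against 6.04% of all tested). They were below all 3 controls at 10 (1.82%, against 1.47% of all tested). The share of isolated CpGs whose groups did not overlap was therefore close to that of all CpGs.

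The median difference at an isolated CpG was 2.44 points, with 372 of 550 higher in parthenotes, beside 2.00 points and 66.0% of all tested CpGs. Without control 1 the median turned to -1.25 points, with 40.4% higher, beside -0.70 points and 43.3%. Differences of more than 20 points were found at 18 isolated CpGs (3.27%), against 325 of all tested (2.63%), of which 164 carried a variant sign. Of the 18 isolated ones, 13 carried a variant sign: 11 of the 15 that were higher in parthenotes and 2 of the 3 that were lower. The part of sequence variants in these differences was not tested beyond the values given here.

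**Figure D4:**
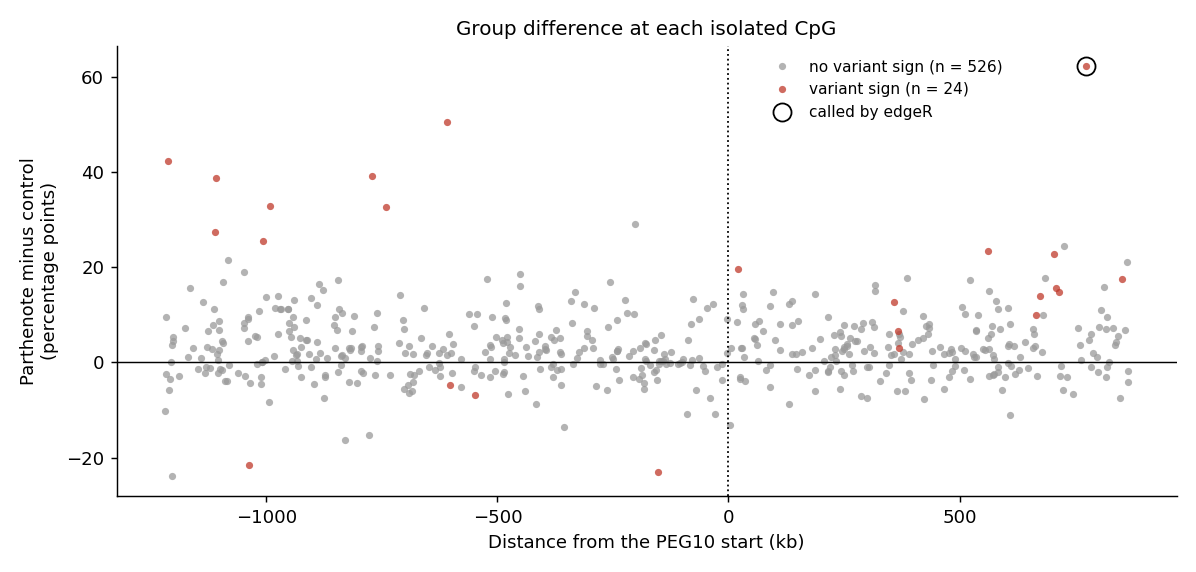
Parthenote minus control level (percentage points) at each of the 550 isolated CpGs against the distance from the PEG10 start (kb, positive towards PEG10 and PPP1R9A); red points carry a variant sign and the ring marks the site called by edgeR. Most points lie within 10 points of 0, and 13 of the 18 beyond 20 points are red.

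The called site lies in the 3′ UTR of PDK4, a kinase that restrains pyruvate dehydrogenase and so glucose oxidation (position 75247157, nearest CpGs at 596 and 716 bp). It was methylated at 46.2%, 43.6% and 0% in controls 1 to 3 (39, 39 and 49 reads) and at 89.3%, 93.3% and 93.6% in parthenotes 1 to 3 (28, 45 and 47 reads). The groups were far apart, and control 3 had no methylated read. Taken as a methylation level, its count of 0 of 49 reads has a 95% Wilson interval of up to 7.27%. Whether the CpG itself is present in control 3 was not tested. The 95% Wilson intervals of controls 1 and 2 were 31.6 to 61.4% and 29.3 to 59.0%. These intervals cover counting error only. The means were 29.9% ± 25.9 and 92.1% ± 2.42 (SD, n = 3 each; edgeR adjusted p = 0.0033). Opposite-strand reads at its plus-strand cytosine carried A in 38.5%, 62.5% and 96.3% of reads in controls 1 to 3 and in 0% in each parthenote. With the totals that the authors corrected for such reads, the levels of the controls were 52.9%, 57.4% and 0%. The minus-strand cytosine had 0% opposite-strand A in every embryo, so this correction left its reads in the total. These corrected levels therefore do not remove the whole part of a variant, and that part was not tested. The call was lost without control 3 (edgeR adjusted p = 0.0528) and without parthenote 3 (edgeR adjusted p = 0.0536). The difference in log2 odds was 5.02 with all embryos, 3.84 without control 3 and 4.89 without parthenote 3.

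The other 4 of the 5 largest increases also carried a variant sign, and edgeR called none of them. Between BET1 and COL1A2, at 73864591, the level was 48.1%, 0% and 57.5% in controls and 87.5%, 87.0% and 82.9% in parthenotes (12 to 46 reads; edgeR adjusted p = 0.138). Control 2 had no call there for 1 strand. Between VPS50 and CALCR, at 73262301, the level was 18.2%, 0% and 0% in controls and 45.2%, 54.8% and 45.2% in parthenotes (13 to 42 reads; edgeR adjusted p = 0.118). Control 1 carried 52.4% opposite-strand A at the plus-strand cytosine, and controls 2 and 3 had no opposite-strand share there. Taken as methylation levels, the counts of 0 in controls 2 and 3 have 95% Wilson intervals of up to 22.8% and 14.3%. Whether the CpG itself is present in these controls was not tested. The limma fit called the site (adjusted p = 0.0426). This site was unlike the others in that the parthenotes were near the middle of the scale.

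In an intron of GNGT1, which encodes a G protein gamma subunit, the site at 73702630 was at 72.0%, 0% and 57.9% in controls and 81.0%, 85.2% and 81.5% in parthenotes (edgeR adjusted p = 1). Opposite-strand A at its minus-strand cytosine was 66.7% in control 2, 21.4% in control 3 and 17.6% in parthenote 1, and 0% in the remaining embryos. In an intron of CALCR, the site at 73365014 was at 25%, 88.9% and 46.2% against 93.9%, 86.8% and 95.3% (edgeR adjusted p = 0.178). At both of these the controls lay far apart and the parthenotes close together. Opposite-strand A at the CALCR site was 65.4% in control 1, 0% in control 2 and 56.2% in control 3, so the control without A reads was the one at the level of the parthenotes.

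The 5 largest decreases were uncalled as well, each with an edgeR adjusted p of 1. A pair of them rested on a single parthenote. In an intron of GNGT1 (73436178) the parthenotes were at 0%, 80% and 100%, against 66.0%, 89.5% and 88.9% in controls. In an intron of CASD1, a sialic acid O-acetyltransferase (74321182), they were at 90.9%, 86.0% and 3.13%, against 62.1%, 94.9% and 92.0%. Among the parthenotes, the low one was the one with opposite-strand A reads, at 93.8% in the first and 94.1% in the second. At the CASD1 site control 1 also carried opposite-strand A, at 28.6%. Without the low parthenote each of these sites was higher in parthenotes. At CASD1 this rested on control 1, since controls 2 and 3 were above both remaining parthenotes.

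The other 3 decreases carried no variant sign. Between VPS50 and CALCR (73269345) the level was 32%, 69.6% and 56.5% in controls and 36.0%, 28.0% and 22.7% in parthenotes, so that control 1 fell among the parthenotes. In introns of GNGT1, the site at 73643868 was at 66.7%, 75% and 72.7% against 65.7%, 59.0% and 40.9%. The site at 73697238 was at 22.7%, 46.4% and 44.0% against 29.6%, 17.2% and 20.7%. These 3 sites had 22 to 39 reads per embryo.

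**Figure D5:**
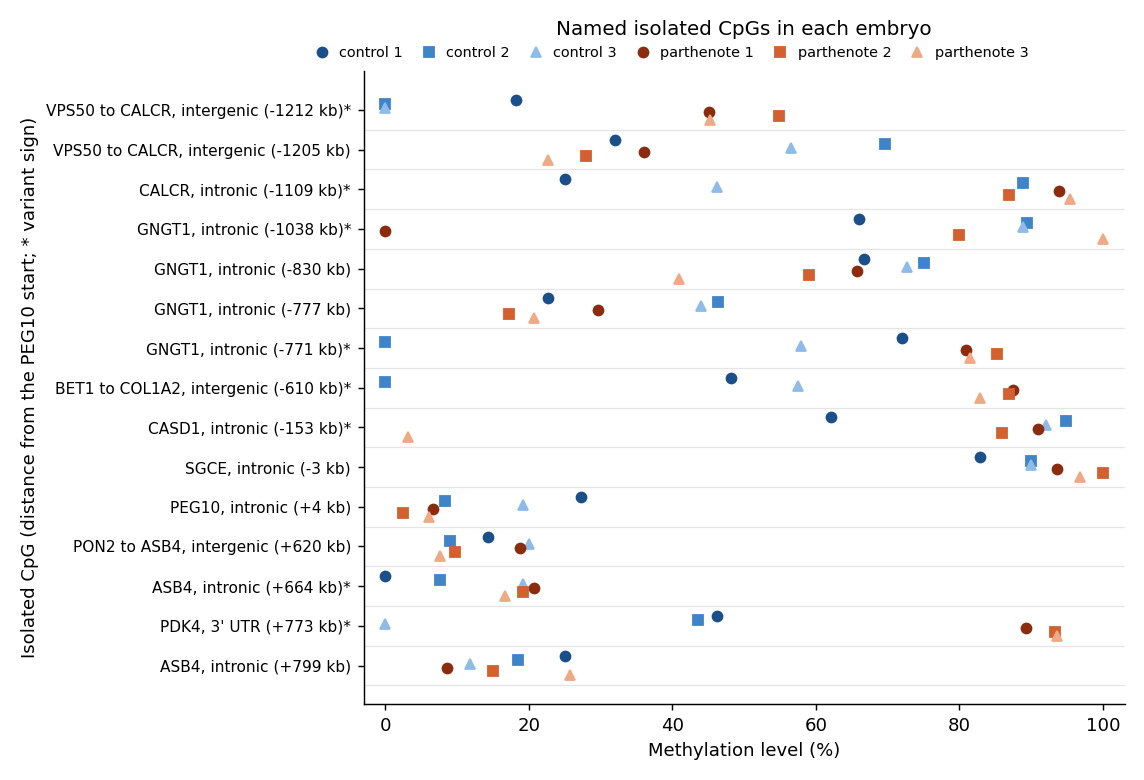
Methylation level (%) of 15 isolated CpGs in each of the 6 embryos (blue controls, red to orange parthenotes), ordered by distance from the PEG10 start; an asterisk marks a variant sign. The 5 largest increases, the 5 largest decreases, the 5 lowest sites and the nearest sites beside SGCE and PEG10 are shown. At PDK4 the groups are widely apart, with control 3 at 0%.

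Outside the rule for named sites, the largest differences with no variant sign and no overlap of the groups were chosen after their values were seen. Between COL1A2 and CASD1, 5284 bp from CASD1, the site at 74271249 was at 50%, 35.3% and 44.0% in controls and 70%, 86.1% and 60.6% in parthenotes. The difference was 29.1 points over 25 to 36 reads (edgeR unadjusted p = 0.0254, adjusted p = 1). In an intron of ASB4, a substrate adaptor of a ubiquitin ligase, the site at 75200811 was at 35.7%, 82.9% and 85.7% against 93.2%, 92.0% and 92.5% (edgeR adjusted p = 0.852). There control 1 was far below the other 5 embryos, and the difference was 24.4 points. In an intron of CALCR the site at 73392193 was at 54.2%, 83.3% and 84.6% against 94.1%, 92.9% and 100% (edgeR adjusted p = 0.851). In the other direction, the site at 75083388 between PON2 and ASB4 was at 70.4%, 78.8% and 81.0% in controls and 69.6%, 62.5% and 65% in parthenotes (edgeR adjusted p = 1). Its lowest control and highest parthenote were less than 1 point apart.

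Few isolated CpGs were low in methylation. A mean under 50% over the 6 embryos was found at 17, of which 10 were intronic and 7 intergenic. ASB4 and GNGT1 held 4 each, and 3 of the 17 carried a variant sign. Of the 5 lowest, 1 was the site at 73262301 given above. In introns of ASB4 the site at 75272970 was at 25%, 18.5% and 11.8% in controls and 8.57%, 15% and 25.7% in parthenotes. The site at 75138557 was at 0%, 7.69% and 19.2% against 20.7%, 19.2% and 16.7%, and control 1 carried 66.7% opposite-strand A there. Between PON2 and ASB4 the site at 75093622 was at 14.3%, 9.09% and 20% against 18.8%, 9.68% and 7.69%. The groups overlapped at all 3 of these sites, which had 16 to 40 reads per embryo. The sites at 75272970 and 75093622 carried no variant sign. They show that a CpG without close neighbours can stay largely unmethylated in all 6 embryos, though such sites were rare. At 75138557, whether the CpG itself is present in control 1 was not tested.

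The lowest of all isolated CpGs lies in PEG10, a gene of retroviral origin that is paternally expressed and needed for the placenta. It is an intronic site 4203 bp inside the gene (74478324) and the first isolated CpG on that side of the PEG10 start. It was methylated at 27.3%, 8.33% and 19.2% in controls 1 to 3 (33, 36 and 26 reads) and at 6.67%, 2.44% and 6.06% in parthenotes 1 to 3 (30, 41 and 33 reads). The 3 parthenotes were below the 3 controls, and the means were 18.3% ± 9.51 and 5.06% ± 2.29 (SD, n = 3 each). The difference of -13.2 points had an unadjusted edgeR p of 0.0409 and an adjusted p of 1. This was the 1 isolated CpG lower at an unadjusted p under 0.05. The next CpG, 504 bp further into the gene at 74478828, is also isolated and was at 80.7% ± 10.7 and 83.6% ± 21.0 (SD, n = 3 each; 11 to 17 reads). The pair thus went from low to high methylation over 504 bp.

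On the other side, the nearest isolated CpG lies in an intron of SGCE, the gene of epsilon-sarcoglycan, 2498 bp inside its start (74471406). It was at 82.9%, 90% and 90% in controls and 93.5%, 100% and 96.8% in parthenotes. The means were 87.6% ± 4.08 and 96.8% ± 3.23 (SD, n = 3 each). The unadjusted edgeR p was 0.052 and the adjusted p 1. The parthenotes were above the controls by 9.13 points over 30 to 41 reads. The following isolated site in SGCE, 3602 bp inside the start at 74470302, had one of the widest spreads. It was at 29.8%, 91.3% and 82.1% in controls and 54.8%, 69.8% and 84.8% in parthenotes.

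Levels of isolated CpGs differed between genes. Among the 12 sets of introns of 1 gene or intergenic stretches with at least 10 isolated CpGs, the highest mean over the 6 embryos was 92.2% in introns of CASD1 (24 CpGs). It was followed by 91.0% in introns of PON2, a paraoxonase (11 CpGs), and 86.4% in introns of PPP1R9A (82 CpGs). The lowest were the stretch between VPS50 and CALCR at 75.2% (11 CpGs) and introns of ASB4 at 77.3% (37 CpGs). The largest set, 97 CpGs in introns of GNGT1, was at 78.3% ± 8.57 in controls and 82.7% ± 1.87 in parthenotes (SD, n = 3 each). The exact permutation p of the group difference was 0.2 or more in each of the 12.

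In 6 of these 12 stretches isolated CpGs were lower than the other CpGs of the same stretch in all 6 embryos. The mean differences were -3.19 points in introns of GNGT1, -2.48 in PPP1R9A and -5.48 in ASB4. They were -4.92 between PEG10 and PPP1R9A, -5.35 between COL1A2 and CASD1 and -6.70 between VPS50 and CALCR. In introns of SGCE and PON2 isolated CpGs were higher in all 6 embryos, by 7.09 and 18.5 points. The other CpGs of these introns were low, at 76.6% and 72.5%, against 83.9% over all other intronic CpGs. Each of these 8 had an adjusted exact sign-flip permutation p of 0.0469 over the 12. All 8 missed the threshold with reads summed over CpGs (adjusted exact p 0.0536 to 0.075) and on each strand alone. In this family too, the adjusted p depends on how many comparisons reach the smallest p. The difference between VPS50 and CALCR was -1.57 points with 20 reads (adjusted exact p = 0.375) and -3.28 points without variant signs (adjusted exact p = 0.075). With a limit of 200 bp it was -2.23 points there and -2.61 points in introns of ASB4, and neither passed. In introns of CALCR and CASD1 and in the stretches from BET1 to COL1A2 and from PON2 to ASB4 the difference did not pass the threshold. The direction turned on the plus strand alone between VPS50 and CALCR (5.15 points). With a limit of 500 bp it turned between COL1A2 and CASD1 (1.40 points) and between PEG10 and PPP1R9A (0.09 points).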

How the data were processed

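The members and all lists were chosen with earlier results of these data known. Libraries were made with a bisulfite kit, per the labels' protocols. The submitters' processing notes name BSMAP 2.87 and the build Sscrofa11.1. Trimming, duplicate removal and mapping settings are not given in the sources used here. The authors deposited, for each CpG cytosine, counts of reads with C, with C or T, and of opposite-strand reads with G and with G or A. Also deposited were an expected count (the C-or-T total corrected for opposite-strand A reads) and the methylation fraction with its interval.

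Here the raw counts of both strands were summed. Summed over CpGs, depth was 380163 to 406443 reads per embryo. A level is methylated over total reads, and a mean level is unweighted over CpGs. Methylated and unmethylated counts of all 12359 CpGs with 10 or more reads in every embryo were tested with edgeR 4.0.16 (quasi-likelihood test, R 4.3.3). The model had a term per embryo and a group term, with Benjamini-Hochberg adjustment over all CpGs, and it was checked on simulated data. limma 3.58.1 (pseudocount 1) and DESeq2 1.42.0 were alternatives. Means were compared by exact 2-sided permutation over embryos. Named sites are those called, the 5 largest differences each way, the 5 lowest and the nearest to the SGCE and PEG10 starts. A planned comparison by neighbouring bases was not run, since no genome was used. Gene starts came from the RefSeq gene table of the same build.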

Additional observations from a re-analysis of the deposited data

How the results depend on the processing

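The group difference of all isolated CpGs (3.61 points) and of its intronic and intergenic classes kept its sign in every alternative except without control 1. With each embryo left out, it was -0.50 to 6.59 points for all, -0.83 to 6.38 in introns and -0.36 to 6.59 between genes. The difference of isolated against other CpGs between groups ranged from -0.50 to 1.56 points. Isolated minus other CpGs, 0.17 points, changed sign with 20 reads (-0.96), limits of 200 bp (-0.45) and 500 bp (-0.77), summed reads (-0.062), the minus strand (-1.29) and other CpGs outside promoters (-1.28). With embryos left out it was -0.079 to 0.71 points. In introns, -0.43 points changed sign with 5 reads (0.14) and on the plus strand (0.56). There it was -0.65 to 0.11 points with embryos left out. With a limit of 200 bp it was -1.28 points in introns and -2.91 between genes, both with an adjusted exact permutation p of 0.031. Between genes it was -2.90 to -2.02 points with embryos left out. The share at 90% or more differed by -11.1 to -9.21 points with embryos left out, where 5 embryos cannot give a p under 0.0625.

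The count of 1 isolated CpG called higher was 0 without variant signs, 2 with limma and 3 with a limit of 200 bp. With embryos left out it was 0 to 3, and the count lower was 0 to 0. Replicate numbers are shared across groups. Over all tested CpGs the correlations of deviations within a number were 0.09, 0.07 and -0.09, and between unlike numbers -0.24 to 0.21. Over isolated CpGs those within a number were 0.05, -0.001 and -0.12. Whether the numbers pair embryos cannot be told from these values. With a replicate block edgeR called 4, all with a variant sign, and the mean difference was 3.61 points (exact sign-flip permutation p = 0.75, where 3 pairs cannot give a p under 0.25).

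The 6 distance calls and the 8 stretch calls were lost whenever an embryo was left out, where 5 embryos cannot reach the threshold, and in the other settings given beside them. Against neighbours at 10 to 49 bp, intronic isolated CpGs were at -0.15 points with 20 reads. Against 100 to 299 bp, intergenic ones were at 0.71 points on the plus strand. Stretches that changed sign were CASD1 introns (-1.84 with 20 reads, -1.10 on the plus and -3.28 on the minus strand), CALCR introns (-3.56 at 200 bp, -0.46 at 500 bp), VPS50 to CALCR (5.15, plus strand) and BET1 to COL1A2 (0.039, plus strand). At 500 bp COL1A2 to CASD1 was at 1.40 and PEG10 to PPP1R9A at 0.094 points. On the log2 odds scale, single sites that changed sign were GNGT1 73436178 (1.25 without parthenote 1, and -3.25 to 1.25 with embryos left out), CASD1 74321182 (0.30 without parthenote 3, and -2.88 to 0.30 with embryos left out), PON2 to ASB4 75093622 (0.20, minus strand) and ASB4 75272970 (0.50, plus strand; 0.13 without control 1; 0.16 without parthenote 1, and -0.73 to 0.16 with embryos left out). Other causes of these changes were not tested. The comparison families of distance and stretch, the 90% share, the corrected totals and the promoter restriction were chosen after seeing the data. At 10 to 71 reads per site and embryo, differences at single sites are limited by counting.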
